A study of Bos taurus with 4 samples.

Results

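Fragments of lysine tRNA were examined in small RNA libraries of bovine oocytes at the germinal vesicle (GV) stage, in which the oocyte is arrested in meiotic prophase before maturation. Members were all names in the deposited annotation that give a nuclear tRNA of type Lys as their source, 300 of 38611 names, from 104 of 3607 tRNA labels. The anticodon CTT accounted for 38 of these labels and TTT for 66. Where a sequence carried more than 1 name, each name received an equal part of its reads. Of 2041 distinct sequences with a tRNA-Lys name, 1760 carried no other name and 281 were shared with other RNAs.

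The study compared 2 libraries of input RNA, for which no antibody was used, with 2 libraries of RNA recovered with an antibody against TDRKH. Both groups came from GV stage oocytes, and no genotype, strain, age or pooling is given in the sources used here. No library of a control antibody was used here, so levels in the immunoprecipitates (IPs) can be read only against input. Reads of 18 to 36 nt were listed, and levels are given in reads-per-million (RPM) of the listed reads of the library.

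TDRKH is a tudor and KH domain protein of the outer mitochondrial membrane that binds PIWI proteins and takes part in piRNA maturation. Transfer RNAs fold into a cloverleaf whose anticodon loop lies near the middle of the chain. Nucleases that cut in this loop leave a 5′ and a 3′ tRNA-half, and cuts elsewhere leave shorter tRNA-derived fragments (tRFs). Fragments that begin at the first base are 5′ tRFs, and those that keep the added CCA end are 3′ CCA tRFs. The annotation calls a terminal fragment of 30 nt or more a tRNA-half and one of 29 nt or less a tRF. Fragments that fit no terminal class are called misc-tRFs. Lysine tRNA is among the types known to give abundant 5′ fragments in mammalian cells.

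Overlapping reads from the libraries were joined into a 76-nt sequence for each anticodon, which served to number positions. The anticodon occupied positions 34 to 36 in both and is shown in capitals. The 2 chains are printed first because every end position below refers to them, and they differed at 3 of the first 36 positions.
LysCTT, joined from reads: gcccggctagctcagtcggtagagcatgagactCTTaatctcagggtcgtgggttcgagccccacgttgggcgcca
LysTTT, joined from reads: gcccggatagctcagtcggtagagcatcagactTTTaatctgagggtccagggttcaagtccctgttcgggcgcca

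The next sequences are 3 of the 5 most abundant of the input, followed by leading sequences of the IPs, because they show where the fragments end in each. The first 3 stop within the anticodon or just before it, and the anticodon bases they contain are in capitals. The next pair stop at positions 28 and 29, in the stem on the 5′ side of the anticodon loop. The last 2 are internal fragments, one of which runs from position 16 to 47 across the anticodon.
LysCTT 5′ tRNA-half of 35 nt: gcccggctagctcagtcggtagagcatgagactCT
LysCTT 5′ tRNA-half of 32 nt: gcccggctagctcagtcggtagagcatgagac
LysTTT 5′ tRNA-half of 36 nt: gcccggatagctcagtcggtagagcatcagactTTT
LysCTT 5′ tRF of 28 nt: gcccggctagctcagtcggtagagcatg
LysCTT 5′ tRF of 29 nt: gcccggctagctcagtcggtagagcatga
LysCTT internal, 32 nt: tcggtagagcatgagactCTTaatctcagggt
LysTTT internal, 33 nt: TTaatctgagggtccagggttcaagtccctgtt

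The libraries held 1079364 and 1354003 listed reads in input and 11138905 and 11060320 in the IPs. Reads named for piRNA clusters made up 88.8% and 87.8% of input and 96.9% and 96.8% of the IPs, so the class that marks the germ line was the most abundant in each library. MicroRNAs that mark cumulus and granulosa cells, the somatic cells around the oocyte, were present for 4 of 5 in input, at a summed 236 and 283 RPM, against 1.26 and 2.71 RPM in the IPs, and miR-212 was at 0. Of 4 leukocyte microRNAs 3 had input reads, at 49.5 to 60.7 RPM in sum, against 0.316 to 0.628 RPM in the IPs, and miR-223 was at 0. The liver microRNA miR-122 stood at 335 to 435 RPM in input and 1.71 to 2.35 RPM in the IPs, and none of 3 erythroid microRNAs was found. The marker microRNAs were thus lower in both IPs, as were most tRNA-Lys groups below, and their part in the results was not tested. MicroRNA reads as a whole were lower too, at 1.77% and 1.82% of listed reads in input and 0.0603% and 0.0735% in the IPs. The fall was therefore not particular to the markers.

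Lysine tRNA fragments were lower in the IPs as a class, by an amount that depended on the scaling. They stood at 2681 and 2832 RPM in the inputs (2894 and 3834 reads) and at 284 and 267 RPM in the IPs (3166 and 2948 reads). Both IPs lay below both inputs. The total fell by 3.32 ± 0.06 (SE) on the log2 scale, 10.01-fold (adjusted p = 1.90e-08, edgeR's quasi-likelihood test with Benjamini-Hochberg adjustment, here and below). The change was -2.13 with TMM factors and -1.10 with DESeq2's size factors, and it turned to 1.44 when scaled to the microRNA total. Across all names and summed tRNA types of the same fit the median change was also negative, at -2.52. A lower RPM in the IPs is a smaller share of the sequenced RNA, and the amount recovered with the antibody cannot be read from it.

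LysCTT gave most of the reads. It stood at 2242 and 2264 RPM in input and 257 and 240 RPM in the IPs, and fell by 3.18 ± 0.06 on the log2 scale (adjusted p = 2.96e-08). LysTTT stood at 439 and 568 RPM in input and 26.8 and 26.1 RPM in the IPs, and fell by 4.26 ± 0.13 on the log2 scale (adjusted p = 2.53e-07). The share of LysCTT among tRNA-Lys reads was 81.8% ± 2.61 in input and 90.4% ± 0.271 in the IPs (SD, n = 2, exact permutation p = 0.333, the smallest that 2 against 2 libraries allow). It was 77.9% and 71.5% when each distinct sequence was counted once, so the order of the groups depended on read number.

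Among single names, 81 of 300 had enough reads to be tested, of which 62 fell and none rose (the same counts at an unadjusted p under 0.05). DESeq2 called 54 lower and none higher with listed reads as library size, and 54 lower and 19 higher with its own size factors. Over all names tested 58.2% fell and 16.7% rose. The median change of the 81 names was -3.85 on the log2 scale, against -2.44 for all 5414 names. Of the 81 names, 46 passed the filter on low values through the inputs alone, so their count is a description and no support for a fall of all members. Copies of a tRNA with the same sequence share their reads, and the 81 names held 11 separate sets of counts, the largest of which was common to 16 names. The names are therefore described below as 12 groups of anticodon and fragment type. Of these, 10 were tested, 9 fell and none rose, beside 58.4% that fell and 18.2% that rose in that fit, and 5 of the 10 passed the filter through the inputs alone. These 5 were the LysTTT 5′ tRNA-halves, the 3′ tRNA-halves of both anticodons, and the 3′ tRFs and 3′ CCA tRFs of LysTTT. For them the filter set the direction of the test.

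**Figure D1:**
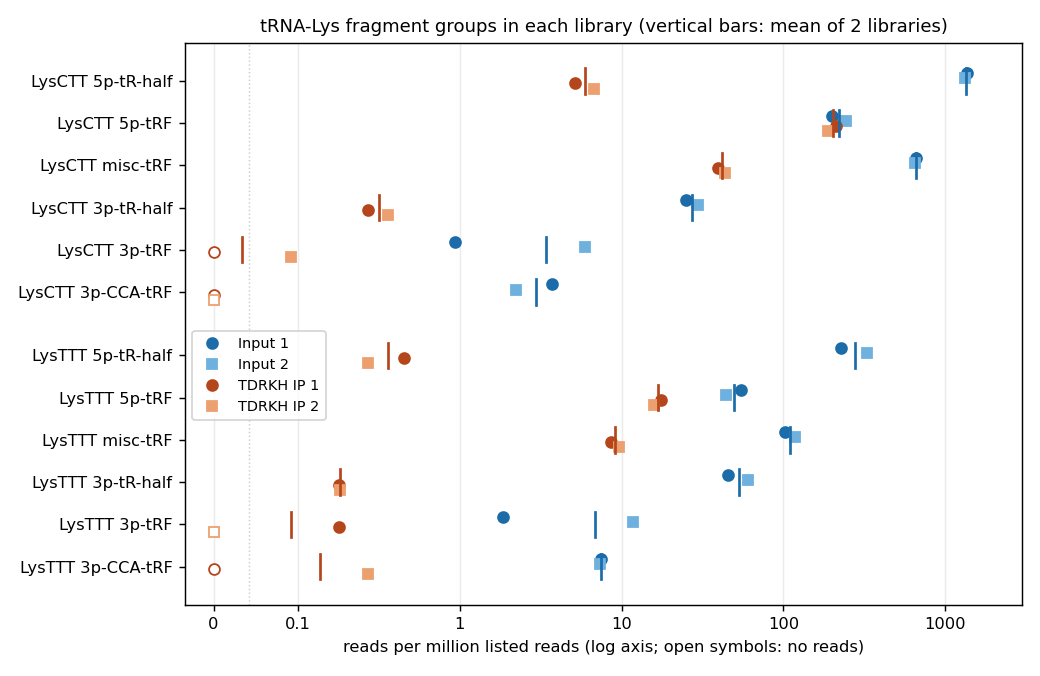
Levels of the 12 tRNA-Lys fragment groups in each library, in RPM of listed reads on a log axis, with open symbols for libraries without reads and vertical bars for the mean of 2 libraries. LysCTT 5p-tRF is the group whose libraries overlap, at 189 to 245 RPM, while LysCTT 5p-tR-half runs from 1327 and 1354 RPM in input to 5.12 and 6.78 RPM in the IPs.

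The 5′ tRNA-halves were the main tRNA-Lys fragments of the input and were nearly absent from the IPs. Those of LysCTT stood at 1354 and 1327 RPM in input and at 5.12 and 6.78 RPM in the IPs, a fall of 7.81 ± 0.11 on the log2 scale (225-fold, adjusted p = 1.44e-08). Those of LysTTT stood at 227 and 326 RPM in input and at 0.449 and 0.271 RPM in the IPs, from 5 and 3 reads. They fell by 9.52 ± 0.29 on the log2 scale (adjusted p = 3.10e-07), but this group passed the filter through the inputs alone, which set the direction of its test. All 18 tested LysCTT names and all 8 tested LysTTT names of this type fell, beside 58.2% of all names. These are mostly copies with the same counts that passed the filter through the inputs alone, so their number is no support for the fall. The 35-nt LysCTT tRNA-half printed above was the most abundant sequence of the input, at 200 and 158 RPM, and had 3 reads in IP 1 and none in IP 2. It fell by 10.17 ± 0.49 on the log2 scale (adjusted p = 3.49e-17). The 36-nt LysTTT tRNA-half, which ends with the last anticodon base, stood at 109 and 131 RPM in input and 0.0898 and 0.181 RPM in the IPs (adjusted p = 7.57e-17). Both sequences reached the 10 RPM needed for a test in the inputs only, so the filter set the direction of these tests.

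The 3′ tRNA-halves were rarer and lower in the IPs as well. LysTTT had more of them than LysCTT, although its 5′ tRNA-halves were fewer. They stood at 45.4 and 60.6 RPM in input for LysTTT, with 2 reads in each IP, and fell by 8.06 ± 0.38 on the log2 scale (adjusted p = 3.25e-06). LysCTT 3′ tRNA-halves stood at 25.0 and 29.5 RPM in input, with 3 and 4 reads in the IPs, and fell by 6.35 ± 0.41 (adjusted p = 1.61e-05). Both groups passed the filter through the inputs alone, so the filter set the direction of these tests. The most abundant forms of the 3′ tRNA-halves in input began at position 41, downstream of the anticodon loop, and ended with cca. With listed reads of at most 36 nt, position 41 is the earliest start for a read that keeps the whole cca. Longer 3′ tRNA-halves could not be seen.
LysTTT 3′ tRNA-half of 36 nt: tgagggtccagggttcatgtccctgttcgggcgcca
LysCTT 3′ tRNA-half of 36 nt: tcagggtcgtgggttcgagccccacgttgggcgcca
The shorter 3′ tRFs and 3′ CCA tRFs of LysTTT, at 1.85 to 11.8 RPM in input, fell by 6.03 and 5.58 on the log2 scale (adjusted p = 0.00184 and 7.52e-04). The first rests on 2 and 16 input reads, and both groups passed the filter through the inputs alone, which set the direction of their tests. Both calls were lost without a filter on low values (adjusted p = 0.128 and 0.0773) and when scaled to the microRNA total (-1.49 and -1.01, adjusted p = 0.184 and 0.335). LysCTT 3′ CCA tRFs had 4 and 3 input reads and no IP read, which makes them at least 21.3-fold lower against a floor of 3 counts over the IPs, and neither they nor the LysCTT 3′ tRFs (1 and 8 input reads) were tested. No single name of any 3′ type had enough reads for a test.

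The most abundant LysTTT 3′ tRNA-half differed from the joined sequence by 1 base, A58T, counted from 1 at the 5′ end of the tRNA. Position 58 lies in the T loop, where tRNAs carry a 1-methyladenosine that reverse transcriptase often misreads. In the inputs 97 of 171 LysTTT reads over this position and 37 of 88 LysCTT reads had another base than A. T was read in 32.2% and G in 22.8% of the LysTTT reads, and T in 27.3% and G in 12.5% of the LysCTT reads. The next most substituted position of the same reads had a substitution in 4.14% (LysTTT, position 69) and 3.57% (LysCTT, position 64). The share of A at position 58 differed between the inputs, at 14 of 35 and 37 of 53 reads for LysCTT and 33.9% and 48.2% for LysTTT. Only 4 and 5 IP reads of LysCTT and 4 and 9 of LysTTT covered it, too few to compare.

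The 5′ tRFs made up most of the tRNA-Lys reads left in the IPs. Their share of tRNA-Lys reads was 9.85% ± 0.521 in input and 79.0% ± 2.80 in the IPs, while that of 5′ tRNA-halves was 58.7% ± 0.384 and 2.30% ± 0.486 (SD, n = 2, exact permutation p = 0.333 for each). In level, LysCTT 5′ tRFs stood at 199 and 245 RPM in input and 213 and 189 RPM in the IPs, and the groups overlapped. The change of -0.15 ± 0.11 on the log2 scale did not pass the test (adjusted p = 0.238), and it was 1.14 with TMM factors and 2.08 with DESeq2's size factors, both past the threshold. None of the 18 tested names of this group, most of them copies with the same counts, passed the test, also at an unadjusted p under 0.05. LysTTT 5′ tRFs stood at 54.7 and 44.3 RPM in input and 17.5 and 15.8 RPM in the IPs, and fell by 1.56 ± 0.17 (adjusted p = 2.03e-04). Of 9 tested names 8 fell, beside 58.2% of all names, but these were copies with the same counts that passed the filter through the inputs alone. The call for the group was lost with TMM factors (-0.27, adjusted p = 0.167) and with DESeq2's size factors (0.65, adjusted p = 0.0974).

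The IP fragments ended at 2 neighbouring positions. Of LysCTT reads that began at position 1, 13.6% ± 1.97 of the input and 94.4% ± 0.811 of the IP reads ended at position 28 or 29 (SD, n = 2, exact permutation p = 0.333). Reads ending at 29 stood at 125 and 154 RPM in input and 133 and 127 RPM in the IPs. Reads ending at 28 stood at 63.9 and 80.5 RPM in input and 72.7 and 55.9 RPM in the IPs, so both ends overlapped between the groups. Ends at 30 marked a sharp boundary, with 6.49 and 27.3 RPM in input and 1.53 and 2.53 RPM in the IPs. At position 35, the main end of the input, levels were 424 and 299 RPM in input and 0.269 and 0.0904 RPM in the IPs.

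LysTTT reads from position 1 were fewer, with 112 and 96 reads in the IPs, and had 2 groups of ends there. Position 18 was the most frequent single end on average, with 24 and 43 reads (21.4% and 44.8%), followed by 28 (33.9% and 21.9%) and 29 (23.2% and 19.8%). Ends at 28 and 29 together made up 5.58% ± 4.71 in input and 49.4% ± 10.9 in the IPs, but in level they were lower in the IPs, at 24.1 and 8.12 RPM in input and 5.75 and 3.62 RPM in the IPs. The 18-nt form stood at 6.49 and 2.95 RPM in input and 1.98 and 3.71 RPM in the IPs.
LysTTT 5′ tRF of 18 nt: gcccggatagctcagtcg
In input the main LysTTT end was position 36, at 132 and 168 RPM, against 0.0898 and 0.181 RPM in the IPs. Listed reads were at most 36 nt, so position 36 is the last that a read from position 1 can reach. Ends further along could not be seen.

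**Figure D2:**
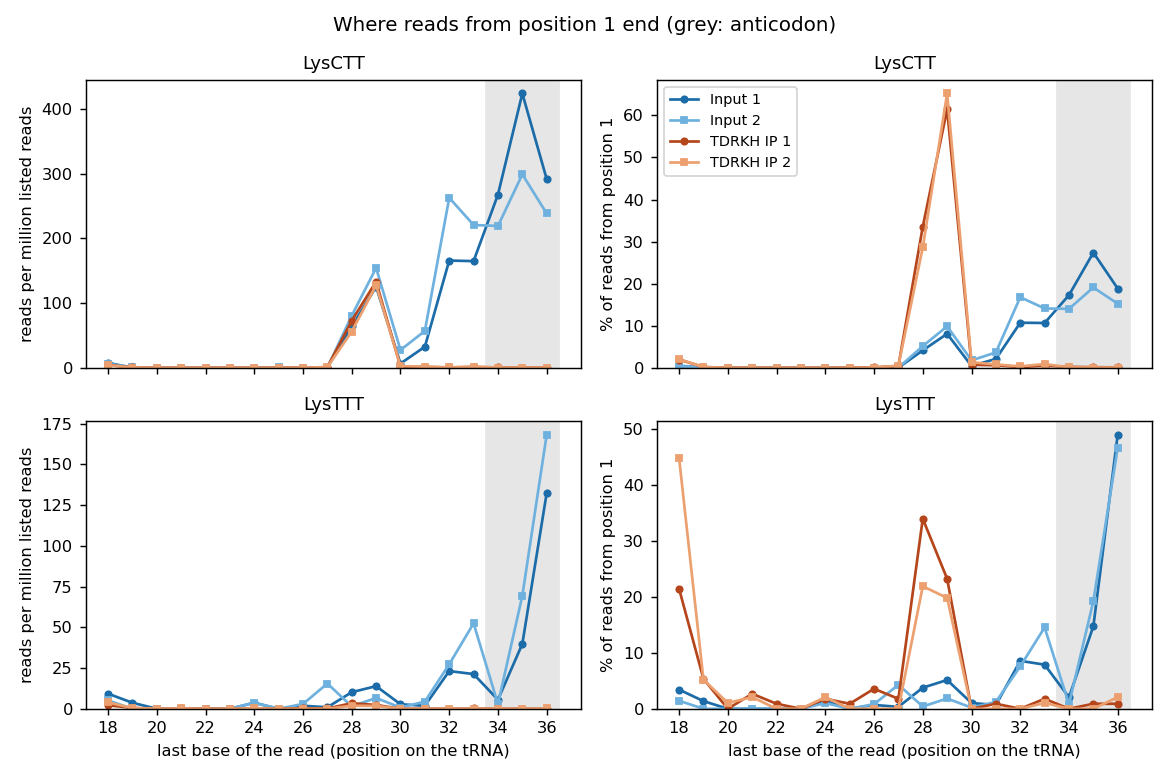
Last base of reads that begin at position 1, for LysCTT and LysTTT, as RPM of listed reads (left) and as a percentage of those reads (right), with a line for each library and the anticodon in grey. LysCTT levels at 28 and 29 are alike in all 4 libraries, at 55.9 to 154 RPM, whereas the ends at 32 to 36 are seen in the inputs only on this linear scale.

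The exact 29-nt sequence was the most abundant tRNA-Lys sequence of the IPs, with 1338 and 1286 reads. It stood at 69.5 and 110 RPM in input and 120 and 116 RPM in the IPs, both IPs above both inputs, and the change of 0.39 ± 0.27 on the log2 scale did not pass the test (adjusted p = 0.198). Without input 2 it was 0.77 and passed (adjusted p = 0.0178), while with TMM factors it was -0.28 and did not. The 28-nt sequence stood at 35.2 and 54.7 RPM in input and 64.0 and 50.7 RPM in the IPs, which overlap, with a change of 0.34 ± 0.30 (adjusted p = 0.314). Of 2041 distinct sequences, 25 reached 10 RPM in 2 libraries and were tested. The filter set the outcome of most of them, since 22 reached this level in both inputs and in no IP, and the same number fell. The other 3 reached it in both IPs, and none of them passed the test. Among all 11786 sequences tested 19.9% fell and 41.9% rose.

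Summed by length over all sequences, LysCTT reads of 28 and 29 nt were lower in the IPs, unlike the exact sequences. Those of 28 nt stood at 98.2 and 96.8 RPM in input and 78.6 and 62.0 RPM in the IPs, and fell by 0.47 ± 0.15 (adjusted p = 0.0221). Those of 29 nt stood at 140 and 178 RPM in input and 134 and 128 RPM in the IPs, and fell by 0.29 ± 0.11 (adjusted p = 0.0466). Both calls depended on single libraries. They were lost without input 2, without TDRKH IP 2 and, for 28 nt, without input 1 (adjusted p = 0.283) or, for 29 nt, without TDRKH IP 1 (adjusted p = 0.0545). The values without input 2 were -0.48 (adjusted p = 0.284) and -0.09 (adjusted p = 0.512), and those without TDRKH IP 2 were -0.31 (adjusted p = 0.113) and -0.25 (adjusted p = 0.125). With TMM factors both lengths had positive changes, 0.80 and 0.99. Each length of 30 nt and above fell, with log2 changes between -4.26 at 30 nt and -10.37 at 35 nt. In that fit 58.1% of all features fell. LysCTT reads of 34, 35 and 36 nt passed the filter through the inputs alone, so the filter set the direction of their tests.

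Sums and exact sequences differed in how many reads carried a substitution. Of LysCTT reads from position 1 ending at 28 or 29, 56.4% and 71.4% in input and 90.3% and 91.6% in the IPs matched the joined sequence without one. Among reads ending at 30 or later, the shares overlapped, at 62.3% and 68.7% in input and 64.9% and 65.3% in the IPs (exact permutation p = 1). Over the whole libraries, piRNA cluster reads with a substitution noted by the annotation made up 48.7% and 41.2% in input and 26.04% and 26.15% in the IPs. The part of this difference in the tRNA-Lys values was not tested.

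The 30-nt reads of the IPs differed from those of the input in their last base. Of LysCTT reads that began at position 1 and ended at 30, 11 of 17 in IP 1 and 19 of 28 in IP 2 carried A in place of the G of the joined sequence (G30A). Over both IPs this was 66.7% (Wilson 95% interval 52.1% to 78.6%), against 0 of 44 reads over both inputs, for which the interval reached 8.03%. The sequence equals the 29-nt form plus an A, which is printed in capitals. Whether this base was added, belongs to another copy of the tRNA or was misread was not tested.
LysCTT 30 nt: gcccggctagctcagtcggtagagcatgaA
It had 10 and 19 reads in the IPs and none in input, where the floor of 3 counts over the group corresponds to 1.23 RPM. At 1.31 RPM over the IPs it was at least 1.06-fold higher there. It was counted as a 5′ tRNA-half by its length, and it held 10 of the 57 and 19 of the 75 reads of that LysCTT group in the IPs.

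A minor LysCTT sequence, given by 2 tRNA labels against 16 for the main one, allowed the copies to be told apart in reads that cover position 29. It was joined to 47 nt and differed from the main sequence by A29G and T41C. Among reads ending at 30 to 36 it made up 15.3% and 9.73% in input and 1.75% and 1.33% in the IPs, the latter from 1 read each of 57 and 75. Most of its input reads of this range, 200 of 223 and 156 of 174, ended at 35 or 36. There it made up 25.9% and 21.5% in input, while the IPs held 0 and 1 reads of it beside 5 and 1 of the main sequence. Input and IP reads of this range thus also differed in their ends, and the part of this in the shares was not tested. Among reads ending at 29 it made up 1.49% and 1.94% in input and 1.56% and 0.783% in the IPs, and the groups overlapped. Position 28 lies before the difference, so 28-nt reads belong to either.

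The misc-tRFs were lower in the IPs and differed in make-up from those of the input. In level, LysCTT misc-tRFs stood at 660 and 654 RPM in input and 39.4 and 43.8 RPM in the IPs and fell by 3.98 ± 0.08 (adjusted p = 3.82e-08). LysTTT misc-tRFs stood at 103 and 117 RPM in input and 8.53 and 9.58 RPM in the IPs and fell by 3.61 ± 0.15 (adjusted p = 1.25e-06). All 19 and all 9 tested names fell, beside 58.2% of all names, but most of them were copies with the same counts. All 9 LysTTT names and some of the LysCTT names passed the filter through the inputs alone. The number of names is therefore no support for the fall. With total microRNA reads as library size both group changes turned positive, at 0.77 and 1.14. Most LysCTT misc-tRFs of the input were 5′ tRNA-halves that lacked their first bases. Reads starting at positions 2 to 5 and ending at 30 or later stood at 517 and 535 RPM in input and 1.53 and 1.18 RPM in the IPs. An example of 32 nt, from position 4 to 35, stood at 51.9 and 89.4 RPM in input and 0.359 and 0.0904 RPM in the IPs (adjusted p = 1.43e-14). It too reached 10 RPM in the inputs only, so the filter set the direction of its test.
LysCTT misc-tRF of 32 nt: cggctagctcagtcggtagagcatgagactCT
The LysTTT counterpart of 34 nt, from position 3 to 36, stood at 13.9 and 10.3 RPM in input and had no IP read, at least 88.2-fold lower against the floor of 3 counts over the IPs.
LysTTT misc-tRF of 34 nt: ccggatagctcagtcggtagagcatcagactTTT

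Reads that lacked the first bases but ended at 26 to 29 followed the 5′ tRFs instead. For LysCTT they stood at 14.8 and 8.86 RPM in input and 15.4 and 16.1 RPM in the IPs. The 28-nt form from position 2 to 29 stood at 4.63 and 2.95 RPM in input and 4.67 and 4.88 RPM in the IPs.
LysCTT misc-tRF of 28 nt: cccggctagctcagtcggtagagcatga

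Internal fragments were also more abundant in input as a class. LysCTT reads that started at 6 to 36, ended at 30 or later and stopped short of the 3′ end stood at 119 and 103 RPM in input and 19.5 and 22.6 RPM in the IPs. Those of LysTTT stood at 5.56 and 12.6 RPM in input and 3.41 and 4.16 RPM in the IPs. Some that began with T were higher in the IPs, and these were chosen for description as the most abundant of the IPs. Among misc-tRF reads with tRNA-Lys names only, those with a first T were 3.62% ± 1.14 of the input and 47.9% ± 3.04 of the IP reads, and those with a first C were 83.7% ± 1.43 and 45.5% ± 2.17 (SD, n = 2, exact permutation p = 0.333). The 32-nt LysCTT fragment from position 16 to 47 was the most abundant of them, with 89 and 95 reads in the IPs. It stood at 0.927 and 4.43 RPM in input and 7.99 and 8.59 RPM in the IPs, both IPs above both inputs, and was too low in input for the test. All LysCTT reads starting at 16 stood at 4.63 and 8.86 RPM in input and 13.2 and 15.5 RPM in the IPs. The LysTTT fragment from position 35 to 67 had 8 and 15 reads in the IPs and none in input, a level below the input floor. LysTTT reads that started at 35 and ended at 66 or 67 numbered 18 and 22 in the IPs and 0 in both inputs, while all reads from 35 overlapped, at 4.63 and 0.739 RPM in input and 2.24 and 2.62 RPM in the IPs.

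**Figure D3:**
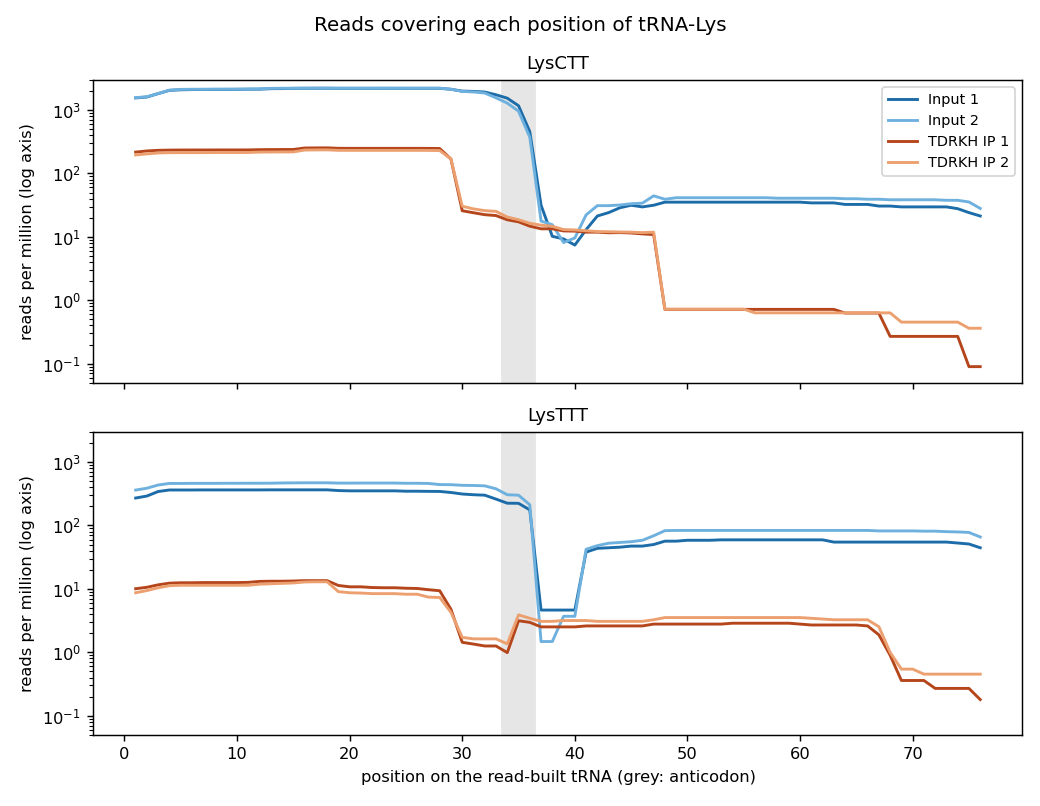
Reads covering each position of the joined LysCTT and LysTTT sequences, in RPM of listed reads on a log axis, with a line for each library and the anticodon in grey. LysCTT coverage of the IPs drops after position 29, from 168 and 169 RPM there to 22.4 and 25.9 RPM at 32, and again after 47, whereas that of the inputs stays at 1852 to 1919 RPM at 32 and drops at the anticodon. Listed reads were at most 36 nt, so those from position 1 could not cover positions past 36.

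First bases of tRNA-Lys reads were counted over all fragments. G, the first base of the mature tRNA, began 71.3% ± 0.0846 of input and 78.9% ± 2.41 of IP reads. C began 24.1% ± 0.990 and 8.08% ± 0.560, and T began 3.64% ± 0.702 and 12.6% ± 1.74 (SD, n = 2, exact permutation p = 0.333 for each). In the whole libraries T began 82.4% and 82.6% of input and 88.2% and 87.4% of IP reads, so tRNA-Lys fragments mostly lacked the first T of the bulk of the reads. With each distinct sequence counted once, G began 56.9% of input and 47.3% of IP sequences.

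Lengths of 28 and 29 nt together made up 10.98% ± 0.412 of tRNA-Lys reads in input and 77.02% ± 2.94 in the IPs, and 30 nt or more made up 83.4% ± 0.0494 and 8.07% ± 0.866 (SD, n = 2, exact permutation p = 0.333). Over all listed reads 28 and 29 nt made up 6.89% and 7.41% in input and 8.05% and 7.86% in the IPs, with a median length of 25 nt in each library. Among the other abundant tRNA types, the share of 28 and 29 nt was 13.3% in input and 68.1% in the IPs for tRNA-Val, 3.66% and 14.3% for tRNA-Glu, and 1.91% and 0.763% for tRNA-Gly. Reads of 30 nt or more made up 80.9% in input and 1.595% in the IPs for tRNA-Val, 85.9% and 6.91% for tRNA-Glu, and 70.9% and 1.32% for tRNA-Gly.

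Sequences shared with other RNAs supplied 0.479% ± 0.00412 of tRNA-Lys reads in input and 4.59% ± 0.270 in the IPs. Most of them, 96.9% and 96.1% in the IPs, also carried a tRNA-Glu name. Among the 5′ tRFs and 5′ tRNA-halves they were most frequent in LysTTT 5′ tRFs, where they were 44.0% and 45.6% of the IP reads against 12.6% and 18.3% of the input reads. The leading one could not be placed on either joined sequence, and it is printed because it led the LysTTT 5′ tRFs of the IPs.
LysTTT and GluTTC 5′ tRF of 28 nt: tccctggcagtccagtggttaggactca
It stood at 10.2 and 17.7 RPM in input and 22.9 and 21.8 RPM in the IPs. Its change of 0.65 ± 0.38 on the log2 scale did not pass the test (adjusted p = 0.131), but passed without input 2, at 1.13 (adjusted p = 0.0420). Without shared sequences LysTTT 5′ tRFs stood at 47.9 and 36.3 RPM in input and 9.81 and 8.62 RPM in the IPs.

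Set against the same fragment type of all other nuclear tRNAs, lysine tRNA differed by type. This test does not depend on the scaling of the libraries, and 29.9% of the 87 combinations of tRNA and fragment type fell in it and 23.0% rose. The reads of each combination enter the comparison of the others of its fragment type, so the tests are not independent. The spread between libraries was estimated with information from all 87 combinations, so very small p-values should be read with caution. Among 5′ tRNA-halves the tRNA-Lys share was 14.1% and 12.1% in input and 13.6% and 14.7% in the IPs, and the relative change of 0.13 ± 0.20 on the log2 scale did not pass (adjusted p = 0.608). Among 5′ tRFs it was 14.2% and 16.9% in input and 21.5% and 21.7% in the IPs, a relative rise of 0.58 ± 0.19 (adjusted p = 0.00638). That call was lost without input 1 (adjusted p = 0.0901), TDRKH IP 1 (0.0692) or TDRKH IP 2 (0.0708). tRNA-Val 5′ tRFs rose by 0.86 ± 0.19 in the same test (adjusted p = 2.94e-05).

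Among misc-tRFs the tRNA-Lys share was 12.6% and 10.98% in input and 1.31% and 1.63% in the IPs, a relative fall of 3.16 ± 0.19 on the log2 scale (adjusted p = 1.68e-36). The misc-tRFs of tRNA-Gly, which rose by 0.87 in this test, made up 68.6% and 67.8% of the type in the IPs. Among 3′ tRFs the share was 2.17% and 16.9% in input and 0.210% and 0.109% in the IPs, a relative change of -5.88 ± 0.95 (adjusted p = 2.58e-08) whose size rests mainly on input 2. Among 3′ CCA tRFs it was 2.08% and 1.96% in input and 0 and 0.119% in the IPs, a relative change of -5.03 ± 0.99 (adjusted p = 4.98e-06). Those of tRNA-Asp and tRNA-Glu changed by -6.52 and -5.53, whereas those of tRNA-Trp rose by 1.71. Among 3′ tRNA-halves the share was 8.88% and 7.86% in input and 8.77% and 24.0% in the IPs, and the change did not pass (adjusted p = 0.249). Of the 6 fragment types 3 fell and 1 rose relative to other tRNAs, beside 29.9% and 23.0% of all combinations. The 3′ tRFs and 3′ CCA tRFs passed the filter on low values through the inputs alone, which favoured a fall. Their calls are therefore a description and no support for a fall.

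**Figure D4:**
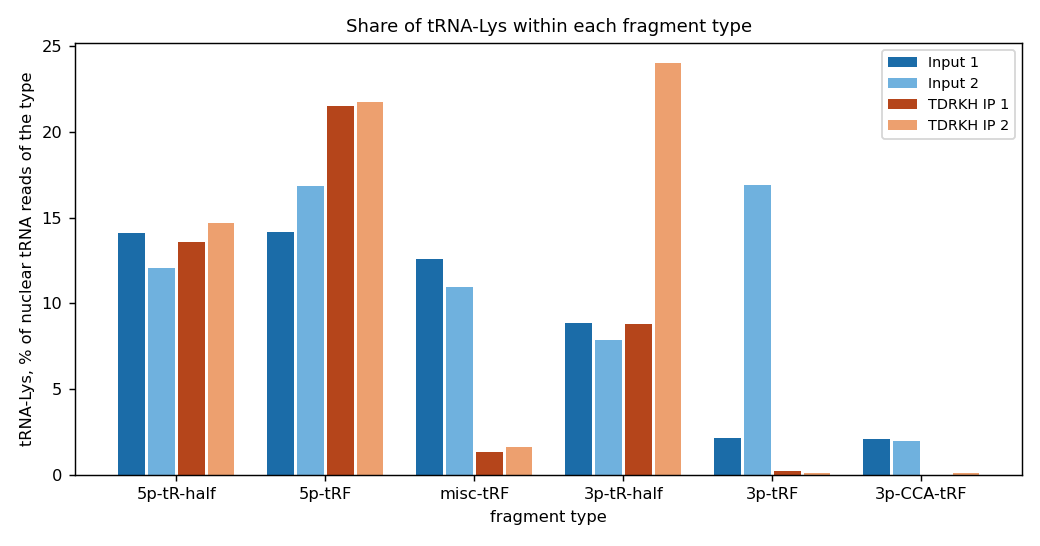
Share of tRNA-Lys among nuclear tRNA reads of each fragment type, in percent, with a bar for each library. The IP bars stand above the input bars for 5p-tRF, at 21.5% and 21.7% against 14.2% and 16.9%, and far below them for misc-tRF, at 1.31% and 1.63% against 12.6% and 10.98%.

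The scaling set how falls and rises divided, because the classes of RNA changed unequally. MicroRNA reads made up 1.77% and 1.82% of listed reads in input and 0.0603% and 0.0735% in the IPs, and with their total as library size the median of all names moved from -2.44 to 2.24 on the log2 scale. The tRNA-Lys total was then 1.44 higher on that scale, below the median. Whichever of the 4 library scalings was used (listed reads, TMM, DESeq2 or microRNA total), tRNA-halves of both anticodons and both ends fell, by 3.07 to 7.81 on the log2 scale for LysCTT 5′ tRNA-halves and 4.81 to 9.52 for LysTTT 5′ tRNA-halves. Among them only the LysCTT 5′ tRNA-halves reached the level of the filter in the IPs as well.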

How the data were processed

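Per the labels' protocols, TRIZOL-extracted RNA of 2 inputs and 2 IPs went into NEXTflex Small RNA-Seq Kit V3 libraries for a NextSeq 500. The deposited files, named for the unitas annotation, give a read count for each sequence with its names. Its settings and genome build were not given in the sources used here. Members and lists were chosen with earlier results of these data known. Nothing says that the libraries came from separate oocyte collections, so p-values measure the spread between libraries, which may be technical.

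Reads of a sequence were divided equally among its names, and sums were rounded. IP was compared with input by edgeR 4.0.16 (R 4.3.3, glmQLFit and glmQLFTest, filterByExpr, total of listed reads as library size), with Benjamini-Hochberg adjustment over all features fitted and a threshold of 0.05. Sequences were tested from 10 RPM in 2 libraries. Standard errors were approximated from the change and F. Reads were placed on the joined tRNAs with at most 2 substitutions. These were joined by overlaps of at least 14 nt (LysCTT) and 9 nt (LysTTT) and not checked against a genome. Floors and Wilson intervals cover counting error only, and counts include PCR copies. Named sequences were the most abundant of each fragment group with at least 20 RPM, and the 5 most abundant of all, in input and in IP. The fit of names was tested on simulated data for 5414 names, where it recovered 22 of 59 at a 2-fold change, 56 of 72 at 4-fold and 60 of 69 at 8-fold, with 6 false calls. There a common spread served for all names, and the changed names were few and drawn up or down with equal odds. In the data 58.2% fell and 16.7% rose, so the simulated error need not hold for them. Python 3.11.15, numpy 2.4.6 and pandas 2.3.3 served for the remaining steps, scipy 1.17.1 for intervals and matplotlib 3.10.9 for figures.

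Alternatives were TMM factors, DESeq2 1.42.0, total microRNA or piRNA cluster reads as library size, other filters, unshared sequences, each distinct sequence once, thinned IPs, a replicate block and leaving out each library. The analysis by length was added after the data were seen.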

Additional observations from a re-analysis of the deposited data

How the results depend on the processing

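Of the log2 changes recomputed under each alternative, 312 kept their direction and their side of the threshold, 23 changed sign, 14 lost a call and 7 gained one. Of the counts, 42 stayed within 1.5 times and 10 did not. Of the shares, 22 moved by less than the spread between libraries, 6 by more and 2 changed sign. Scaled to the microRNA total, the log2 change was 1.44 for the total, 1.59 for LysCTT and 0.51 for LysTTT, 4.62 and 3.20 for 5′ tRFs of LysCTT and LysTTT, 0.77 and 1.14 for their misc-tRFs, and 4.30, 4.48 and 0.47 for LysCTT reads of 28, 29 and 30 nt. In that setting 28 of the 81 names fell and 43 rose, and 3 of 25 sequences rose. With TMM factors the LysCTT 5′ tRFs were 1.14 higher, 28 and 29 nt were 0.80 and 0.99 higher, and the exact 28-nt, 29-nt and GluTTC-shared sequences had changes of -0.33, -0.28 and -0.02. With DESeq2's size factors the 5′ tRFs of LysCTT and LysTTT changed by 2.08 and 0.65, 28 and 29 nt by 1.71 and 1.90, and the exact 28-nt and 29-nt sequences by -0.30 and -0.25. In each of these 2 settings 54 names fell and 19 rose. With filterByExpr for sequences, 41 of 62 fell and 1 rose. Counting each distinct sequence once changed the share of first base G by -9.61 and that of LysCTT by -6.35 percentage points, IP minus input. The median of all names was -2.44 on the log2 scale as reported, -1.11 with TMM factors and -0.33 with DESeq2's size factors.

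Without input 2 LysCTT 5′ tRFs changed by 0.01. When a single library was left out, 0 to 22 sequences fell and 0 to 2 rose. The count of 0 came without either input, since 10 RPM in 2 libraries then required an IP and left 3 sequences in the test. The relative rise of 5′ tRFs against other tRNAs ranged from 0.44 to 0.74 without one library. With the replicate number as a block, the total fell by 3.32 on the log2 scale and 62 names fell. The labels do not say whether same-numbered libraries are pairs. Their deviations had a correlation of 0.0198, which cannot decide this with 2 libraries in each group and counting error in low names. No call of the report changed under the block. The 3′ fragment groups held 0 to 4 reads in each IP, which leaves their changes imprecise.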
